A study of Sus scrofa domesticus with 30 samples.

Results

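The 3 interferon-high endometria were the animals whose uterine lining held the most mRNA of a set of interferon-stimulated genes, out of 15 gilts (young female pigs) sampled on pregnancy day 13. No age at sampling is labelled, but all gilts were weaned at the same age and entered the breeding area when 170 days old. Each of the 15 mRNA libraries was scored by its mean log2(value + 1) over 8 interferon-stimulated genes (ISG15, MX1, MX2, IFIT1, IFIT3, RSAD2, IFI44 and USP18), and the 3 highest libraries were set against the other 12. All gilts were crossbred (Landrace, Yorkshire, Duroc), were mated by artificial insemination and gave endometrium from about the middle of a uterine horn. As newborns they had been sorted by immunocrit (iCrit), which reads from a blood sample how much immunoglobulin a piglet has absorbed from colostrum, into a low group of 7 and a high group of 8 gilts. The labels name no strain, allele or agent that sets the groups apart otherwise. No treatment of the adults to raise interferon is labelled, and the division into 3 and 12 was made from the mRNA values themselves. Each animal also gave 1 small-RNA library from the same RNA.

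Interferons are secreted proteins that act through cell surface receptors and the kinases JAK1 and TYK2. Type I and type III interferons assemble a transcription factor complex that includes STAT2 and IRF9 and switches on antiviral genes, whereas interferon gamma acts mainly through other factors, IRF1 among them, on guanylate-binding proteins, antigen presentation and chemokines. In the pig, elongating conceptuses secrete interferon gamma and interferon delta at about this stage of pregnancy, and many interferon-stimulated genes are known to be induced in the endometrial stroma while estrogen of the conceptus restrains them in the luminal epithelium.

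The members were high iCrit replicate 2 with a score of 11.87, low iCrit replicate 2 with 11.13 and high iCrit replicate 6 with 10.27. Just outside lay high iCrit replicate 8 with 10.23 and low iCrit replicate 7 with 10.05, and the lowest score was 8.97 in low iCrit replicate 6. The top pair thus stood 0.86 log2 units clear of the next library, while ranks 3 and 4 differed by only 0.03. The same 3 libraries were chosen by ISG15, MX1 and RSAD2 alone, and again after each library was centred on its median. These scores chose the members and carry no test. Among the defining markers, ISG15 was 4816 in high iCrit replicate 2, 2246 in low iCrit replicate 2 and 1065 in high iCrit replicate 6, against 397 to 1321 in the others. Of the 8 scoring genes, 8 were above all 12 others in high iCrit replicate 2, 7 in low iCrit replicate 2 and 3 in high iCrit replicate 6, which lay inside the range of the others for ISG15. These counts follow from the rule and only describe its margin.

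**Figure D1:**
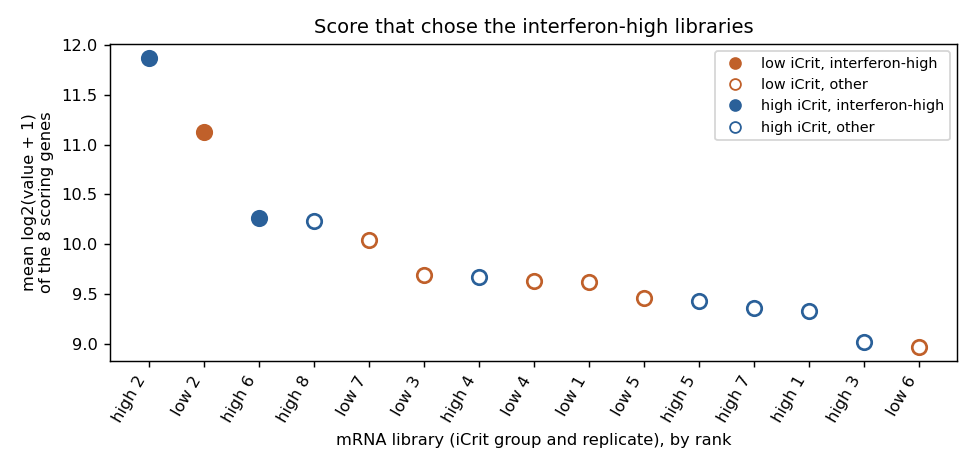
Score of each mRNA library, the mean log2(value + 1) of the 8 scoring genes (vertical axis), for the 15 libraries in order of rank (horizontal axis), with filled points for the 3 interferon-high libraries and colours for the iCrit group. High iCrit replicate 2 (11.87) and low iCrit replicate 2 (11.13) stand apart, and high iCrit replicate 6 (10.27) lies beside high iCrit replicate 8 (10.23).

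Depth, estimated from the smallest step between values, ran from 23.6 to 63.4 M (mega) reads over mRNA libraries and from 12.7 to 18.0 M over small-RNA libraries. The interferon-high libraries held 33.2 ± 4.07 M mRNA reads (SD, n = 3) and the others 38.8 ± 10.9 M (SD, n = 12), with p = 0.424 in an exact two-sided permutation test over all 455 choices of 3 libraries, whose smallest possible p is 0.0022. Low iCrit replicate 2 stood apart from the rest of the series, with the lowest mean correlation with the other libraries (0.952 in a range up to 0.971). On its own it lay above the highest of the 12 others for 14.1% of genes and below the lowest for 16.8%, against 6.32% and 5.41% for high iCrit replicate 2 and 8.74% and 6.52% for high iCrit replicate 6. High iCrit replicate 8, just outside, lay above the remaining 11 for 7.88% of genes. Values are therefore given for each of the 3 libraries.

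Outside the 8 scoring genes, 16811 gene entries lay above the floor value of 1 in at least 7 libraries. Of these, 64 (0.381%) were higher in all 3 interferon-high libraries than in every other library, and 32 (0.19%) were lower. With a difference of at least 2-fold in addition, 25 (0.149%) were higher and 7 (0.0416%) lower. The rule that picked the libraries used the same mRNA, so these shares are given as a description and no p-value is attached to them. Among the 64 were 21 of the 164 tested genes of the 7 lists of interferon response and antigen presentation (12.8% of those lists), and 0 of the 32 genes below came from them. The median difference of all entries was -0.01 on the log2 scale. After each library was centred on its median, 92 genes lay above and 20 below. The counts depended on each member, since fewer libraries then had to be separated: 353 above and 278 below without high iCrit replicate 6, 273 and 238 without high iCrit replicate 2, and 134 and 96 without low iCrit replicate 2. Of the other libraries, leaving out high iCrit replicate 4 gave 85 and leaving out low iCrit replicate 6 gave 51 genes below.

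The antiviral effectors, proteins that block viral entry, translation or replication, formed the most uniform group. All 44 tested members outside the score had a positive difference, where 48.2% of all genes did, and the median difference was 0.87 on the log2 scale. Their list mean, taken relative to the mean of the other 12 libraries, was 1.34 in high iCrit replicate 2, 0.95 in low iCrit replicate 2 and 0.51 in high iCrit replicate 6, and it spanned -0.38 to 0.37 in the others. The 2 sets of libraries did not overlap in this mean. Single genes were less uniform, since 13 of the 44 lay above all others in each of the 3 libraries, 13 more in the top pair only, 12 in high iCrit replicate 2 only and 3 in both high iCrit members only. Over all genes these patterns held 0.381%, 1.73%, 3.79% and 0.422%.

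DDX60, a helicase that works with the cytoplasmic RNA sensors, had the largest difference of the higher named genes (Sscrofa11.1 chr14:21077491-21163563, plus strand). Its normalized value was 10094 in high iCrit replicate 2, 11482 in low iCrit replicate 2 and 4801 in high iCrit replicate 6, against 1300 to 3375 with a median of 2652 in the others. The difference was 1.80 ± 0.42 (SE, n = 3 and 12) on the log2 scale, or 3.47-fold. SLFN11, known for restricting viral protein synthesis, was at 1816, 3773 and 1078 in the same order, against 295 to 1005 with a median of 640 in the others. High iCrit replicate 6 was thus only just above the highest other library for SLFN11, and low iCrit replicate 2 contributed most to the difference of 1.68 ± 0.55.

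CMPK2, a mitochondrial nucleotide kinase, lay next to the scoring gene RSAD2 (viperin), 5586 bases away (chr3:128903395-128917873). It reached 4292, 3049 and 2007 in the 3 libraries and 616 to 1336 in the others, a difference of 1.67 ± 0.33. The 3 libraries kept a clear gap from the others for CMPK2, whose highest other value belonged to high iCrit replicate 8. A second such neighbour was LOC100151816, listed in RefSeq with the synonym IFIT5, which lay 5332 bases from the scoring gene IFIT1 on chromosome 14. It was at 3186, 3042 and 2036, against 724 to 1805 in the others, a difference of 1.02. Neighbours were looked for only among genes already above all others in each of the 3 libraries, so their separation follows from the search.

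Enzymes that attach ISG15 to proteins differed among themselves. UBE2L6, which hands ISG15 on to its target proteins (chr2:13354088-13368446), was at 2115, 1917 and 915, against 414 to 891 in the others, a difference of 1.41 ± 0.39. HERC6, an ISG15 ligase in the mouse, was at 5421, 4534 and 3265, against 1735 to 2813, with a difference of 0.93 ± 0.22. For UBE2L6 the margin of high iCrit replicate 6 over high iCrit replicate 8 was small, whereas for HERC6 all 3 libraries were well separated. UBA7, the enzyme that activates ISG15, was above the others in the top pair only, at 2241, 3596 and 798 against 458 to 924. HERC5, the main ISG15 ligase in human cells, was so in high iCrit replicate 2 only, at 8920, 2165 and 4933 against 2132 to 5497.

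Among the effectors that stop translation or entry, EIF2AK2 (protein kinase R) was at 11301, 8188 and 4840, against 2278 to 4238 in the others, a difference of 1.30 ± 0.37. IFITM3, which blocks fusion of viruses with endosomes, was at 6261, 3717 and 2461, against 860 to 2303, a difference of 1.29 ± 0.41. Reads of the near-identical IFITM genes may be split between them, and IFITM1 itself was at 18701, 8829 and 8549, against 8508 to 16469. The 2 IFITM genes therefore differed in pattern, with IFITM1 above the others in high iCrit replicate 2 only.

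Among the higher named genes, the smallest SE of the difference belonged to PARP14, an ADP-ribosyltransferase (chr13:137809499-137865383). It was at 7770, 7915 and 7147, while the others ran from 2962 to 5169, giving a difference of 0.93 ± 0.09. PARP9, its partner 95604 bases away, was at 3809, 5335 and 3269, against 2125 to 3066. PML, which builds nuclear bodies, differed by 0.88 ± 0.25 and TRIM21, a cytosolic antibody receptor, by 0.84 ± 0.33. For TRIM21 the value of 999 in high iCrit replicate 6 was barely above the highest other value of 990, in high iCrit replicate 8, and the difference was 0.55 without low iCrit replicate 2.

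**Figure D2:**
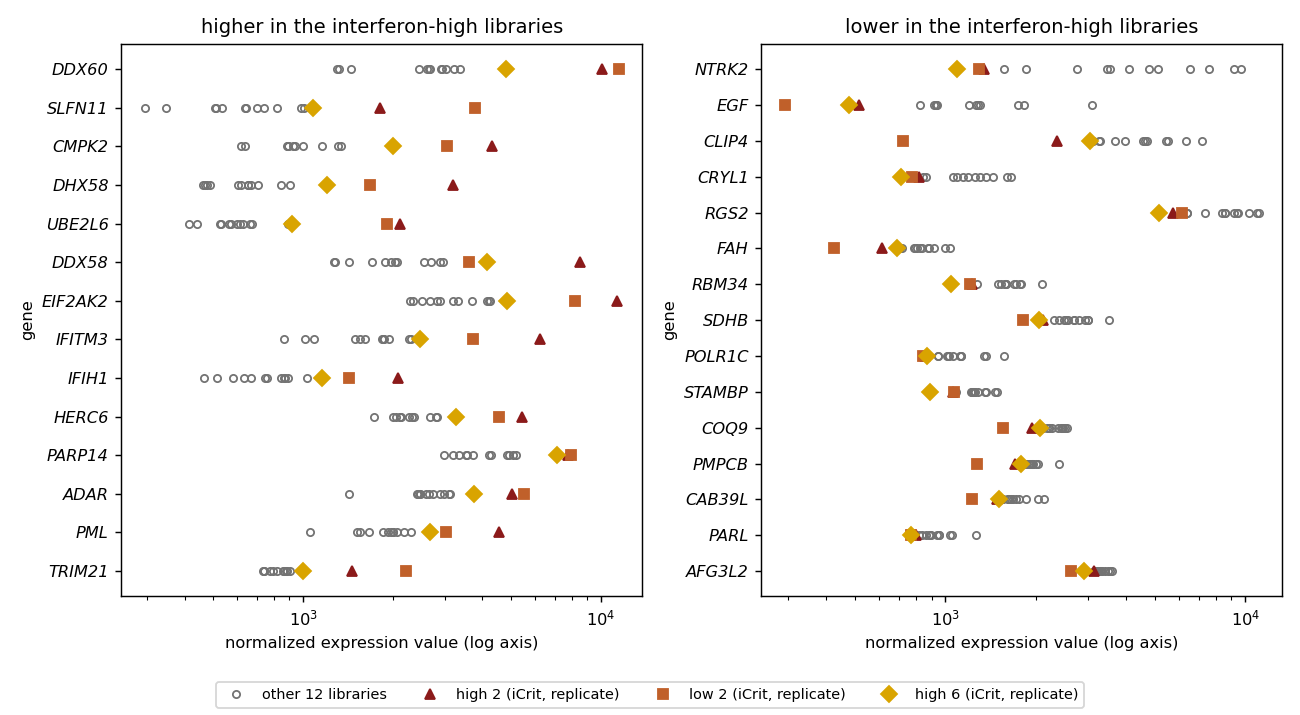
Normalized expression values (horizontal log axis) of 14 higher and 15 lower named genes (vertical axis), with open circles for the other 12 libraries and filled symbols for the 3 interferon-high libraries. By the rule that named them no filled symbol overlaps the open circles, and high iCrit replicate 6 is the interferon-high library nearest to the others for most of the higher genes, such as DDX60 at 4801 against 3375.

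Sensors of viral nucleic acid followed the effectors. Their list held 15 tested genes with a median difference of 0.67, 13 of them above 0, and 4 lay above all others in each of the 3 libraries, where 0.381% of all genes did. Without high iCrit replicate 2 the median was 0.43. DHX58 (LGP2) was at 3192, 1681 and 1202, against 461 to 905 in the others, a difference of 1.60 ± 0.42. DDX58 (RIG-I) was at 8531, 3607 and 4131, against 1274 to 2952, a difference of 1.34 ± 0.40. IFIH1 (MDA5), the sensor of long double-stranded RNA, was at 2082, 1431 and 1155, against 464 to 1034, a difference of 1.07 ± 0.27. The 3 RIG-I-like sensors were thus all separated, as was ADAR, which edits double-stranded RNA, with 5031, 5519 and 3743 against 1429 to 3103.

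The membrane and other sensors did not share this. TLR3, which senses double-stranded RNA in endosomes, was at 1307 and 1279 in the top pair and 788 in high iCrit replicate 6, against 433 to 1257 in the others. TLR7 was above the others in high iCrit replicate 2 only, at 95.2 against at most 79.4. NLRC5, the activator of class I genes, was at 2756 and 5647 in the top pair but 596 in high iCrit replicate 6, well inside the range of 331 to 2525.

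Receptors and signalling proteins differed less. The 30 tested members had a median difference of 0.15, with 22 above 0. Leaving out low iCrit replicate 2 raised that median to 0.31, leaving out high iCrit replicate 6 gave 0.23, and leaving out high iCrit replicate 2 gave 0.00. IRF9, the DNA-binding subunit of the type I complex, was the only member above all others in each of the 3 libraries, as were 0.381% of all genes. IRF9 was at 5572, 4854 and 3858, against 2173 to 3701 in the others, a difference of 0.72. A further 7 members were above all others in the top pair alone, as were 1.73% of all genes. STAT2 was at 12076 and 15048 in the top pair and 4971 in high iCrit replicate 6, against 3160 to 6262. IRF7, the amplifier of type I interferon production, was at 3218 and 2623 in the top pair and 1262 in high iCrit replicate 6, below the 1655 of high iCrit replicate 8. BATF2, IRF1, JAK2 and ETV7 were likewise above all others in the top pair alone.

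The receptor chains themselves showed no common direction. IFNAR1 was at 11204, 3224 and 16064 in the 3 libraries and ran from 2400 to 21092 in the others. IFNAR2 was at 2857, 1370 and 4382, against 1522 to 6357, so low iCrit replicate 2 had the lowest IFNAR2 among these libraries. IFNGR1 was at 1215, 1271 and 842, against 899 to 1404. SOCS1, a feedback inhibitor of the pathway, was not raised, at 1139, 795 and 364, against 595 to 2060 in the others. SOCS3, of the same list, was above all others in high iCrit replicate 2 only, as were 3.79% of all genes.

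The interferon ligands did not mark the 3 libraries. Of the 8 tested ligand entries 3 had a positive difference, the median was -0.51 (-0.24 without high iCrit replicate 2), and none lay above all others in each of the 3 libraries. As only 0.381% of all genes did, a count of none among 8 entries says little. IFNG was 19.0, 35.8 and 1.87 in the 3 libraries, while the others ran from the floor of 1 to 2803 with a median of 26.2. That highest value belonged to high iCrit replicate 8, the library just outside. IFN-DELTA-1, a pig conceptus interferon, was at 19.0, 42.1 and 13.1, against 4.61 to 36.0. The summed value of the tested ligands spanned 874 to 1282 in the interferon-high libraries and 645 to 4407 in the others. Ligand transcripts in this tissue can come from conceptus cells or from leukocytes, and in bulk samples fewer cells of a type and less RNA per cell cannot be told apart.

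Genes that respond mainly to interferon gamma divided the 3 libraries. The list of 26 tested genes had a median difference of 0.53 (0.34 without high iCrit replicate 2) with 24 above 0, yet its list mean was 1.06 and 0.999 in the top pair and -0.12 in high iCrit replicate 6, against -0.47 to 0.79 in the others. GBP1, a guanylate-binding protein that attacks intracellular pathogens, was at 17792 in high iCrit replicate 2, 37689 in low iCrit replicate 2 and 903 in high iCrit replicate 6. The others ran from 851 to 15899, so high iCrit replicate 6 was close to the lowest library. GBP2 behaved alike, at 3785, 8283 and 306, against 281 to 3721, and IDO1, which breaks down tryptophan, was at 498, 484 and 5.6, against 1 to 354. IRF1 was at 6424, 9779 and 2517, against 1558 to 5523.

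The highest other value of GBP1, GBP2 and IRF1 belonged to high iCrit replicate 8 each time. High iCrit replicate 6, nearly tied with it by the score, was inside the range of the others for IRF1. The gamma-response list mean was -0.12 in high iCrit replicate 6 and 0.79 in high iCrit replicate 8, and the antiviral list mean 0.51 and 0.37. Only ICAM1, a leukocyte adhesion molecule, and NMI, an interferon-induced partner of STAT proteins, were above all others in each of the 3 libraries. These are 2 of the 26 tested genes, where 0.381% of all genes were so. ICAM1 was at 1403, 907 and 1097, against 279 to 645, a difference of 1.44.

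Antigen presentation by class I molecules repeated the division. The 21 tested genes had a median difference of 0.43, and 17 were above 0. In each of the 3 libraries 0 lay above all others, where 0.381% of all genes did. In the top pair alone 9 did so, where 290 of 16811 genes did. TAP1, which pumps peptides to class I molecules, was at 12130 and 18636 in the top pair and 4673 in high iCrit replicate 6, against 2732 to 7515. The immunoproteasome subunit PSMB9 was at 2131, 3274 and 808, against 535 to 1712. B2M, the light chain of class I, was at 37030, 39582 and 23417, against 20035 to 34019. Class I heavy-chain genes are near-identical copies whose reads the authors' counting may have split, and SLA-1 was above the others in high iCrit replicate 2 only.

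Class II genes had a median difference of 0.32 over 15 tested genes. Leaving out high iCrit replicate 6 gave 0.73, leaving out low iCrit replicate 2 gave 0.14, and leaving out high iCrit replicate 2 gave 0.02. RFX5, a class II promoter factor, was above all others in each of the 3 libraries, at 1696, 1720 and 1554 against 998 to 1446. It was the only 1 of the 15 to be so, and 0.381% of all genes were. SLA-DRA was at 15596, 12178 and 4939, inside the range of 4170 to 17202, whose top was again high iCrit replicate 8.

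Interferon-inducible chemokines were highest in high iCrit replicate 2. Their median difference was 0.56 with all 3 libraries, -0.19 without that one, 1.77 when high iCrit replicate 6 was left out and 0.36 when low iCrit replicate 2 was. Their list mean was 2.47 there, 0.50 in low iCrit replicate 2 and -0.50 in high iCrit replicate 6, against -1.01 to 1.33 in the others. CXCL10, which recruits activated T cells, was at 13716, 5321 and 1997, against 132 to 7699. CXCL9 was at 800, 112 and 5.6, against 4.38 to 303, and CXCL11 at 728, 39.98 and 14.9, against 9.56 to 141. Of the 13 tested members 7 were above all others in high iCrit replicate 2 alone, as were 3.79% of all genes, and CCL2 was so in the top pair.

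**Figure D3:**
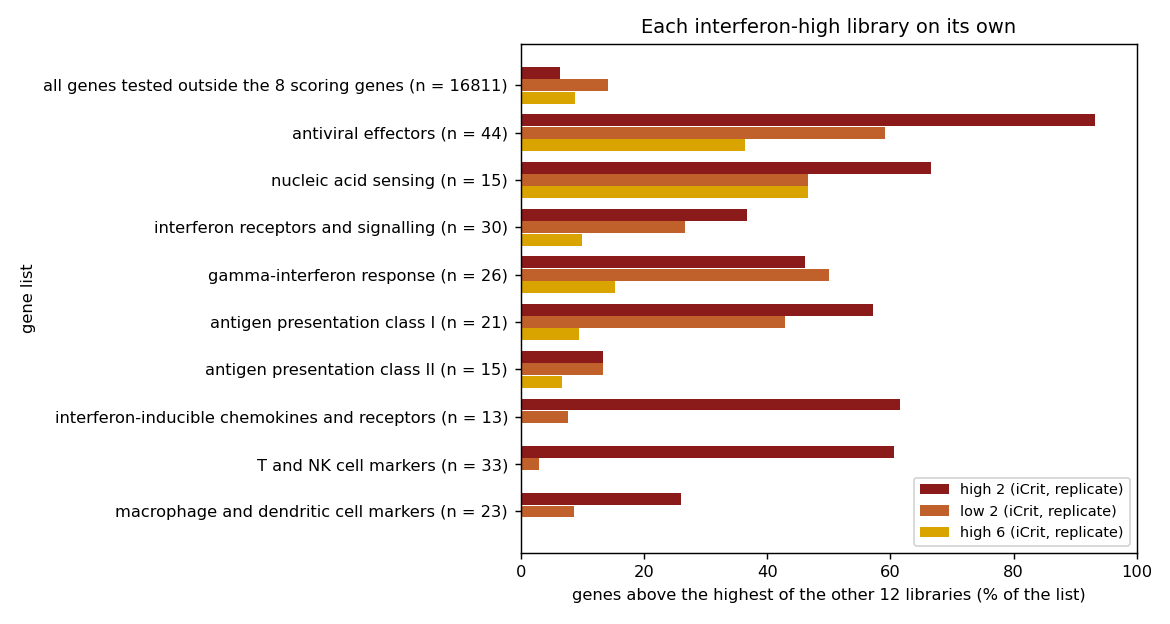
Share of each gene list (horizontal axis, percent of its tested genes) whose value in 1 interferon-high library lay above the highest of the other 12 libraries, with 1 bar per library and the list sizes in parentheses. Over all genes the shares are 6.32% in high iCrit replicate 2, 14.1% in low iCrit replicate 2 and 8.74% in high iCrit replicate 6. Antiviral and sensing genes exceed these in each library, and of the 3 libraries shown chemokine and leukocyte bars are long in high iCrit replicate 2 only.

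Markers of leukocytes were high in high iCrit replicate 2, and also in high iCrit replicate 8, just outside the 3. Of 33 tested T and NK cell markers 19 were above the other 12 libraries in high iCrit replicate 2 alone. Over all genes 3.79% were so. Among the 19 were CD3E at 295 against at most 262 elsewhere and GZMB at 280 against at most 150. The reverse held for 1 of the 33, KLRB1, which lay below all others in each of the 3 libraries. It was at 4.76, 12.6 and 11.2, against 14.2 to 49.2, and 0.19% of all genes lay below in this way. In high iCrit replicate 8, 19 of these 33 markers and 11 of 23 macrophage and dendritic cell markers lay above the remaining 11 libraries. Over all genes that share was 7.88%. Summed over the list, the T and NK markers were 9195 in high iCrit replicate 2, 3477 in low iCrit replicate 2 and 3291 in high iCrit replicate 6, and 2792 to 6746 in the others. Their median difference was 0.16, and it was -0.15 without high iCrit replicate 2. Leaving out high iCrit replicate 6 gave 0.53 and leaving out low iCrit replicate 2 gave 0.33. CTLA4 was at the floor in 13 of the 15 libraries, the 3 included. The summed macrophage and dendritic cell markers were 21410, 19278 and 8849 in the same order, against 9735 to 21482, and ITGAX was at the floor in all 15 libraries. Their median difference was 0.23. Leaving out high iCrit replicate 2 gave -0.01, leaving out high iCrit replicate 6 gave 0.67, and leaving out high iCrit replicate 8 gave 0.37. CD163, a macrophage scavenger receptor, was at 1939 in high iCrit replicate 2, 436 in low iCrit replicate 2 and 213 in high iCrit replicate 6, against 139 to 610.

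The macrophage sum of high iCrit replicate 6 was below that of every other library. Its antiviral list mean of 0.51 was below those of the top pair and above those of the other 12. The part of leukocytes in the antiviral difference of any of the 3 libraries was not tested. The other leukocyte lists gave no common pattern. The 7 plasmacytoid dendritic cell markers had list means of 1.18, 0.20 and -0.17, against -0.62 to 0.67. They include GZMB, also a T and NK marker, and IRF7, also on the signalling list, so this list is not separate from those. The B and plasma cell markers were at 0.54, 0.24 and -0.17, against -0.65 to 0.36. The neutrophil and eosinophil markers were at 0.65 and 0.69 in the 2 high iCrit members and at -1.70 in low iCrit replicate 2. S100A12, a neutrophil calcium-binding protein, was at 6276 and 4121 in the former and 39.98 in the latter, against 461 to 5461. CXCL8 (interleukin 8) was at 174 and 118 in the former and 8.42 in the latter, with at most 12.3 elsewhere.

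Inflammatory cytokines and feedback genes of NF-kB were highest in high iCrit replicate 2, with list means of 1.18, 0.28 and 0.49 and a range of -0.38 to 0.35 in the others. TNF was at 76.2 there, 14.7 in low iCrit replicate 2 and 13.1 in high iCrit replicate 6, against 6.375 to 28.5. IL10 was at 129, 33.7 and 5.6, against 6.57 to 26.8. These are low values, at which a few reads decide the ranking.

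Conceptus RNA was not higher in the 3 libraries. The trophoblast markers had list means of -0.17, -0.03 and -0.65, against -0.65 to 1.43 in the others, whose top was high iCrit replicate 8. PAG6, a pregnancy-associated glycoprotein gene of the trophoblast, was at 4.76, 57.9 and the floor of 1 in the 3 libraries and at 7446 in high iCrit replicate 8. KRT7 was at the floor in all 15 libraries and CDX2 in 11, the 3 included. High iCrit replicate 8, next to the boundary, thus had the highest mean log2 level of trophoblast markers, the most interferon gamma RNA and, outside the top pair, the most GBP1. IFNG was itself on the trophoblast list, so the trophoblast mean and the interferon gamma value are not separate observations. The summed trophoblast level followed another order, at 55447, 40906 and 80674 in the 3 libraries, 71651 in high iCrit replicate 8 and 58140 to 88938 in the 12 others as a whole.

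Genes known to answer to conceptus estrogen or to mark receptivity separated low iCrit replicate 2 from the other 2. The 33 tested genes had list means of 0.14, -1.34 and 0.36, against -0.41 to 0.70 in the others. The median difference of -0.35 became 0.08 without low iCrit replicate 2. Leaving out high iCrit replicate 6 gave -0.74. STC1, a calcium-regulating glycoprotein of the uterine epithelium, was at 13881, 415 and 1562, against 395 to 12355. AKR1B1, a reductase with prostaglandin F synthase activity, was at 36376, 2445 and 57465, against 2841 to 151356. FGF7, which signals from uterine epithelium to trophectoderm in the pig, was at 11375, 3894 and 11298, against 9174 to 40975, so low iCrit replicate 2 was below every other library. The prostaglandin list showed the same library at its low end, with means of 0.04, -0.68 and -0.03, against -0.20 to 0.20.

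Of the structural cell types, ciliated cells gave the largest median difference. Ciliated cell markers were above 0 in 16 of 16 genes with a median difference of 0.46, and their list means of 0.15, 0.73 and 0.58 overlapped the range of -0.53 to 0.42. HYDIN, needed for ciliary beating, was at 2615, 5056 and 3899, against 1082 to 3340, and DNAH9, a ciliary motor, at 1714, 3141 and 4131, against 1032 to 2835. These genes were above the others in low iCrit replicate 2 and high iCrit replicate 6 but not in high iCrit replicate 2. That pattern was met in 5 of the 16 ciliated genes and in 1.25% of all genes. Stromal markers were below 0 in 15 of 17 genes (median difference -0.30) and endothelial markers in 15 of 17 (median -0.27), with list means inside the range of the others. Without low iCrit replicate 6 or without high iCrit replicate 2 the stromal median was -0.19 or -0.16. Epithelial markers went opposite ways, with list means of -0.01 in high iCrit replicate 2, -0.33 in low iCrit replicate 2, below the lowest other (-0.22), and 0.39 in high iCrit replicate 6, above the highest other (0.28). Smooth muscle markers were at -0.76, -0.19 and 0.29, against -0.66 to 0.86, so high iCrit replicate 2 was below every other library. Erythroid markers were at 0.11, -0.69 and 0.53, immediate-early and heat shock genes at 0.19, -0.26 and 0.09, and steroid receptors at 0.15, 0.20 and 0.16, each inside the range of the others.

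**Figure D4:**
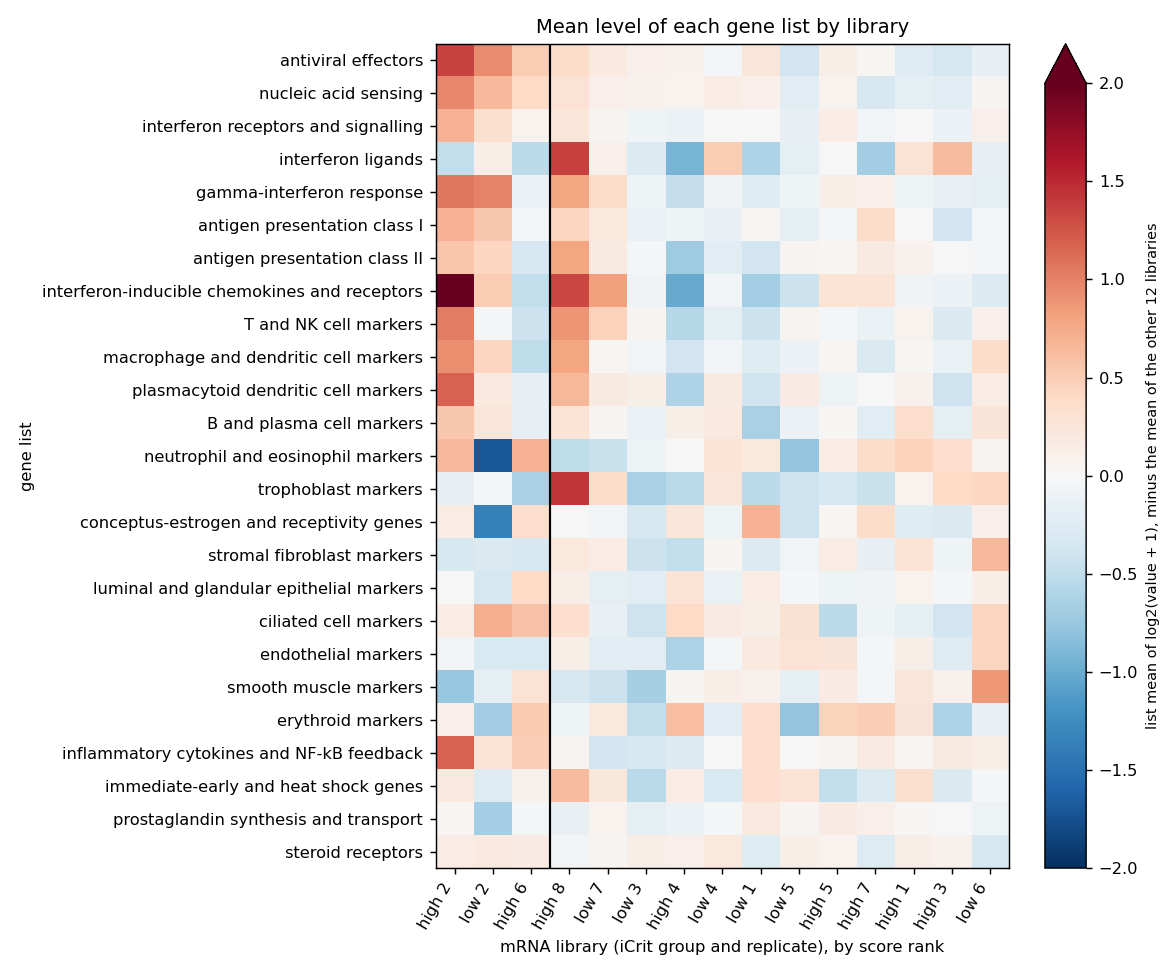
Mean log2(value + 1) of each gene list (vertical axis) in each mRNA library (horizontal axis, in order of score), shown as colour relative to the mean of the other 12 libraries. The 3 interferon-high libraries are left of the black line. Antiviral and sensing lists are red in all 3. Gamma-response and class I lists are reddest in the first pair and in high iCrit replicate 8. Chemokine and T cell lists are reddest in high iCrit replicate 2 (2.47 and 1.02) and high iCrit replicate 8 (1.33 and 0.88). Paler red are, among others, low iCrit replicate 7 (chemokine 0.82, T cell 0.46, gamma-response 0.37), low iCrit replicate 2 (chemokine 0.50) and high iCrit replicate 7 (class I 0.37).

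Genes below all other libraries were led by NTRK2, the receptor of brain-derived neurotrophic factor (chr10:30030050-30429938, minus strand). It was at 1342, 1300 and 1091 in the 3 libraries, against 1572 to 9662 with a median of 4440 in the others, a difference of -1.80 ± 0.26, or 3.49-fold lower. The 3 values lay close together below a wide range, whose top was high iCrit replicate 8. EGF, epidermal growth factor (chr8:112235607-112330062), was at 517, 292 and 476, against 822 to 3093 with a median of 1232, a difference of -1.59 ± 0.30. CLIP4 was at 2350, 724 and 3043, against 3103 to 7180, a difference of -1.37 ± 0.65 that rested mostly on low iCrit replicate 2.

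The other 12 named lower genes differed by less than 2-fold, from -0.66 for CRYL1, an enzyme of glucuronate metabolism, to -0.21 for AFG3L2. RGS2, which limits signalling of G protein-coupled receptors, was at 5763, 6136 and 5142, against 6403 to 11099, a difference of -0.62 ± 0.11. FAH, the last enzyme of tyrosine breakdown, differed by -0.58 ± 0.22. SDHB, a subunit of respiratory complex II, differed by -0.45 ± 0.08, COQ9, of ubiquinone synthesis, by -0.33 ± 0.13, and PMPCB, of the mitochondrial processing peptidase, by -0.31 ± 0.15. Without low iCrit replicate 2 the differences of CLIP4 (-0.75), FAH (-0.37), COQ9 (-0.21) and PMPCB (-0.16) were smaller. SDHB was at 2123, 1818 and 2048, against 2306 to 3525.

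A list of 48 respiratory chain subunits was drawn up after these values were seen and is given as a description. All 48 had a negative difference, with a median of -0.29, and 1 lay below all others in each of the 3 libraries, where 0.19% of all genes did. Among the other 12, high iCrit replicate 7, the shallowest mRNA library, stood above the rest for 44 of the 48. The median was -0.22 without that library and -0.15, with 46 below 0, without low iCrit replicate 2. Its list mean was -0.17 in high iCrit replicate 2, -0.56 in low iCrit replicate 2 and -0.16 in high iCrit replicate 6, against -0.27 to 0.65 in the others. Low iCrit replicate 2 alone was lower than every other library, and the 2 high iCrit members lay within their range.

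No gene was called between the iCrit groups. The members were 1 low and 2 high iCrit gilts, with p = 1 in a two-sided Fisher's exact test whose smallest possible p here is 0.0769. In limma, low against high iCrit gave 0 of 16819 genes (0%) at an adjusted p under 0.05, with a smallest adjusted p of 0.672, and 1200 (7.13%) at an unadjusted p under 0.05, of which 455 were higher and 745 lower in low iCrit (569 and 603 after median centring, 603 and 600 after quantile normalization). The 44 antiviral effectors had a median low-minus-high difference of -0.04, with 21 higher and 23 lower, 0 called and 2 at an unadjusted p under 0.05. Without the 3 interferon-high libraries that median was 0.02, and without high iCrit replicate 2 alone it was 0.11. Without the 3, 0 of 16570 genes were called, with 1629 at an unadjusted p under 0.05. The sensing list had a median of -0.02, and the gamma-response list -0.08.

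Members of both iCrit groups had a raised antiviral list mean, taken relative to all 12 others and not to their own group. They were chosen by related genes of the same mRNA, so this is only a description. The list mean of low iCrit replicate 2 was 0.95 above the mean of the 12, and those of the high iCrit members were 1.34 and 0.51, while no other library of either group exceeded 0.37. The low iCrit group holds 1 member, so the spread of members cannot be judged within it.

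The small-RNA libraries, which the rule did not use, measured other molecules of the same RNA. Of 302 miRNA loci above the floor in at least 7 libraries, 0 (0%) passed an adjusted p of 0.05 in limma between the 3 interferon-high and the other 12 animals, with a smallest adjusted p of 0.556. At an unadjusted p under 0.05 there were 21 (6.95%), 13 higher and 8 lower (12 and 14 after quantile normalization), where 15.1 would be met by chance. The split turned on single members, with 5 higher and 12 lower without high iCrit replicate 2, and 23 and 3 without low iCrit replicate 2. No locus, in either direction, separated the 3 animals from the other 12 without overlap.

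The loci with the smallest p did not pass. miR-9841-3p was at 144 in high iCrit replicate 2, 44.2 in low iCrit replicate 2 and 53.1 in high iCrit replicate 6, against 21.8 to 48.9, with a difference of 1.07 ± 0.30 and an adjusted p of 0.556 in limma. It was raised chiefly in high iCrit replicate 2. miR-92b-3p was at 18246, 17846 and 20400, against 9699 to 19339, with a difference of 0.45 ± 0.16, and miR-107 at 4815, 4319 and 5212, against 2594 to 5151, with 0.42 ± 0.15. Lower were miR-493-3p at 35.8, 65.4 and 66.1, against 63.5 to 130 (-0.72 ± 0.22), and miR-378, listed at 2 loci with nearly equal values, at 19547, 12545 and 23245, against 19051 to 33008 (-0.52 ± 0.17).

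miRNAs of leukocytes and of the interferon response showed no called change. Their 20 loci had a median difference of 0.14, with 13 above 0, beside a median of 0.04 over all 302 loci. miR-155-5p, induced in activated leukocytes, was at 1677, 1064 and 1074, against 975 to 1488, a difference of 0.14 ± 0.16 with an adjusted p of 0.898 in limma. miR-146a-5p, a feedback regulator of NF-kB signalling, was at 9680, 6690 and 5817, against 4866 to 9672. Both were highest in high iCrit replicate 2, though for miR-146a-5p by a very small margin. That animal also had the highest summed T and NK cell markers, but not the highest summed macrophage markers. A link was not tested. In data simulated for this comparison, 47.5% of loci changed by 1.5-fold, 85% of those changed by 2-fold and 100% of those changed by 4-fold were recovered, with 40 of 302 loci changed.

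**Figure D5:**
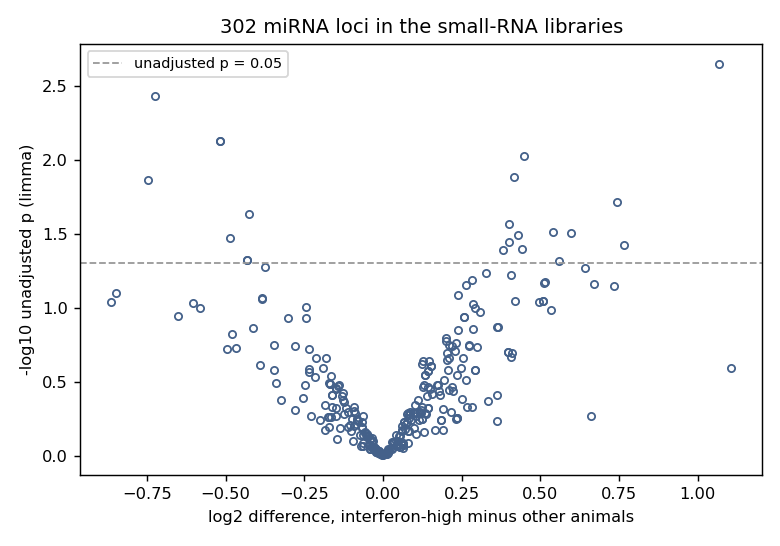
Difference between the 3 interferon-high and the other 12 animals for each of the 302 miRNA loci (horizontal axis, log2) against the unadjusted limma value (vertical axis, -log10 p), with 1 circle per locus and a dashed line at the unadjusted threshold of 0.05. There are 21 loci above the line, and none passes after adjustment.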

How the data were processed

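Poly(A) mRNA (paired-end, 50 bp) and small RNA (single-end, 50 bp) of 15 endometria were sequenced on an Illumina instrument. RNA had to reach an integrity number of 7.5, per the labels' protocols. Both tables of normalized values were deposited by the authors and treated as signal, linear and never below a floor of 1. How reads were aligned, counted and scaled, and against which build, was not given in the sources used here. Coordinates of 27579 of 28224 mRNA entries (97.7%) equalled Sscrofa11.1, so genes are given in that build, while miRNA positions are not printed. Low values were whole multiples of 1 step per library for 91.7% to 94.1% of mRNA and 100% of miRNA values (tolerance 0.05 steps, 10% by chance), which gave the depth estimates. As the floor hides small counts, no count model was fitted.

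Differences are means of log2(value + 1), members minus others, which understates low genes. SE combines the spread of both sets. The mRNA contrast carries no test because it chose the members. Where a symbol had several entries, lists used the entry with the highest mean. List means are relative to the mean of the other 12. miRNA and iCrit contrasts used limma (version 3.58.1, R 4.3.3) with an intensity trend and Benjamini-Hochberg adjustment over all features, tested on simulated data. In 16819 mRNA features, 18%, 62% and 90.5% of iCrit changes of 1.5-, 2- and 4-fold were recovered, with 200 changed. Simulated features were independent, and each change was equal in all libraries of its group. Other steps used Python 3.11.15, numpy 2.4.6, pandas 2.3.3, scipy 1.17.1 and matplotlib 3.10.9.

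Named genes were the 15 largest differences in each direction among genes with a symbol, a mean value no lower than the median over tested genes (763) and no overlap, besides list members described by role. Of the 15 higher genes 14 are reported here. Of the miRNAs, those with the 3 smallest p in each direction were named, since none passed, and 2 of the listed leukocyte miRNAs. Members and lists were chosen with earlier results of these data known. Animals are numbered in record order, and no batch, litter or sire is labelled. Each library is 1 animal, so p-values measure the spread between animals.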

Additional observations from a re-analysis of the deposited data

Results flagged for a closer look

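Within an iCrit group, a library was noted where its gap to the nearest library of that group was a large share of the group's range. This was so in 31 of 112 sets of values, where chance gives about 1 in 20, but most of these are genes that were named because members stood apart. The share is given for each. High iCrit replicate 2 stood above its group in the score (0.562), the list mean of interferon receptors and signalling (0.563), and the values of DDX60 (0.603), CMPK2 (0.622), DHX58 (0.730), UBE2L6 (0.717), DDX58 (0.606), EIF2AK2 (0.716), IFITM3 (0.704), IFIH1 (0.573), HERC6 (0.585), PML (0.538) and TRIM21 (0.638). Low iCrit replicate 2 stood above its group in the sensing list mean (0.578) and in DDX60 (0.796), SLFN11 (0.815), CMPK2 (0.785), DHX58 (0.798), UBE2L6 (0.828), EIF2AK2 (0.674), HERC6 (0.737), ADAR (0.818) and TRIM21 (0.900). It stood below its group in COQ9 (0.633), PMPCB (0.808) and AFG3L2 (0.698). High iCrit replicate 6 was marked for no value.

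Libraries outside the 3 were marked 5 times. Low iCrit replicate 1 was lowest of its group for plasmacytoid dendritic cell markers (0.858) and for B and plasma cell markers (0.574). High iCrit replicate 8 was highest for NTRK2 (0.569), high iCrit replicate 7 for POLR1C (0.622) and high iCrit replicate 5 for CAB39L (0.582).

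In 5 of 25 lists the low iCrit member differed from its own group in one direction and both high iCrit members from theirs in the other. The low-minus-high difference of these contrasts in list mean was 0.854 for interferon ligands, -2.10 for neutrophil and eosinophil markers, 0.570 for trophoblast markers, -1.56 for conceptus-estrogen and receptivity genes and -0.384 for immediate-early and heat shock genes. With 1 low iCrit member these differences were not tested.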

How the results depend on the processing

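How many genes were apart depended on which libraries were counted as members. With the 4 highest libraries against the other 11, 20 genes lay above and 13 below without overlap, 12 and 2 of them by at least 2-fold, and 8 of the 64 genes above were shared, CMPK2, UBE2L6, ZBP1, TRIM21 and IRF9 among them. With the 2 highest against the other 13, a choice made after seeing the data, the counts were 330, 258, 172 and 74, of which 40 were among the 64, and with ranks 3 and 4 left out 451, 325, 244 and 104. Within iCrit groups they were 186, 153, 48 and 19. Fewer or narrower comparison groups overlap less by construction. A pseudocount of 10 left 16 higher and 4 lower genes at 2-fold, and median centring left 20 genes below. Leaving out each library in turn gave 68 to 353 above, 34 to 278 below, 24 to 183 higher and 7 to 78 lower at 2-fold, with members kept. In that order the counts were 353, 278, 183 and 78 when high iCrit replicate 6 was dropped, 273, 238, 86 and 71 when high iCrit replicate 2 was, and 134, 96, 45 and 22 when low iCrit replicate 2 was. Of the other 12, high iCrit replicate 4 moved the genes below to 85, with 20 at 2-fold, and low iCrit replicate 6 to 51. Among the named genes, PARP14 (0.64) and NTRK2 (-0.96) moved by more than the spread between replicates, with the 4 highest libraries. No named gene changed sign in the settings run. The antiviral median stayed between 0.65 and 1.11, the sensing median between 0.43 and 0.90 and the gamma-response median between 0.34 and 0.82. Without high iCrit replicate 2 the medians of macrophage (-0.01), plasmacytoid (-0.05) and smooth muscle markers (0.11) changed sign, after dropping low iCrit replicate 2 that of neutrophil markers (0.33), and with the 4 highest libraries those of ligands (0.07) and trophoblast markers (0.15; also 0.03 when high iCrit replicate 6 was dropped).

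With the 4 highest libraries 1 low and 3 high iCrit gilts were members (Fisher's exact p = 0.569). No setting called a miRNA locus or an iCrit gene, with smallest adjusted p of 0.129 to 0.780 and 0.277 to 0.889 in limma. No paired analysis was possible because the replicate numbers follow record order and pair no animals. Counting error is not covered, since counts were not rebuilt.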

Other observations

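OAS1, an antiviral enzyme that makes the activator of RNase L, was chosen after its values were seen. It was at 332 in low iCrit replicate 2 although other antiviral genes were high there, at 9092 in high iCrit replicate 2 and at 4254 in high iCrit replicate 6, and it ran from 109 to 5117 in the others. OASL was highest in high iCrit replicate 6 (1137), against 402 in high iCrit replicate 2, 135 in low iCrit replicate 2 and 28.8 to 362 in the others. ISG20, an exonuclease, was at 276, 595 and 44.8 in score order, against 4.78 to 189. Antiviral genes thus differed in which of the 3 libraries held the most.

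Granzyme A (GZMA) had 2 entries on chromosome 16. The entry with the lower level was above all others in each of the 3 libraries, at 80.9, 42.1 and 35.5 against 9.22 to 31.3, and the other entry was at 157, 35.8 and 18.7 against 19.98 to 54.4. The 2 entries thus disagreed for the last 2 libraries.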
